A study of Mus musculus with 20 samples.

Results

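Levels of 32 genes of the choroid plexus and of the ciliated ependyma were followed through 20 RNA-seq libraries of mouse BNST, the bed nucleus of the stria terminalis. The BNST is a forebrain region that lies against the lateral ventricle. The genes are a list of known markers, 19 for the choroid plexus and 13 for the ependyma, out of 19214 genes in the deposited tables. The list was chosen with earlier results of these data known. All 32 were found, and 31 had enough counts to be tested; Mia was the exception. The libraries came from 4 groups of 5: female controls (FC), male controls (MC), and females (FS) and males (MS) labelled susceptible, in a study of a mouse anxiety model made by chronic restraint stress. Neither strain nor age stands in the sources used here, and nothing in the labels says that the libraries came from separate animals. All p-values therefore measure spread between libraries that may be technical in origin. Libraries are named by group and replicate, so that FC2 is female control 2. Total counts ran from 14637636 to 17862840 per library, and levels are given as CPM, the usual read count scaled to library size. The GABA neuron genes Gad1 (457 to 893 CPM) and Gad2 (454 to 990 CPM), which are not particular to BNST, were present in all 20 libraries. Over 16 listed GABA neuron genes the range went from 1.73-fold (Six3) to 29.5-fold (Lhx8, 1.13 to 33.5 CPM). Slc17a7, an excitatory marker of cortex and hippocampus, ran from 11.1 to 720.4 CPM, and striatal markers together from 749 to 7824 CPM. The limits of the dissection were not tested. Positions are those of GENCODE M21 on GRCm38. Folr1 lies at chr7:101858331-101870788 on the minus strand, Enpp2 at chr15:54838901-54952892 on the minus strand and Foxj1 at chr11:116330704-116335399 on the minus strand, and levels are sums over each gene.

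The choroid plexus is a sheet of secretory epithelium inside the ventricles. Its cells make cerebrospinal fluid by moving ions, bicarbonate and water, seal the barrier between blood and fluid with tight junctions, and release carrier proteins and growth factor binding proteins into the fluid. Ependymal cells line the ventricle wall and beat motile cilia whose core, the axoneme, is built from dynein arms, radial spokes and a central pair of microtubules. FOXJ1 and the RFX factors switch on the genes of that core. In bulk tissue, fewer cells of a type and less RNA per cell cannot be told apart.

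Promoters are shown because RFX factors act on genes of the axoneme. A link between the letters of a promoter and the levels in these libraries was not tested. Windows of 250 bases before each RefSeq start (GRCm38.p6) were read for the letters GTTGCC on both strands, the core of the RFX motif; 23 of the 32 members had a window. The letters were present in 5 of 10 ependymal members with a window (Ccdc153, Dynlrb2, Pifo, Sntn and Hydin) and in 4 of 13 choroid members (Otx2, Aqp1, Kcne2 and Steap1). They were present in 17 of 54 other motile cilium genes (31.5%), in 1 of 26 other choroid plexus genes (3.85%), and in 11.8% of the 27025 genes with a window. The OTX core TAATCC was present in 1 of 13 choroid members, Otx2, and in 7.21% of all genes, and the forkhead letters GTAAACA in 1 of 13 choroid and 1 of 10 ependymal members against 3.54% of all genes. The windows of 4 ependymal members and 1 choroid member are printed 5′ to 3′ on the strand of the gene, with the RFX letters, or their reverse complement GGCAAC, in capitals. They are those of Ccdc153 (chr9:44240427-44240676, plus strand), Pifo (chr3:106001498-106001747, minus strand), Sntn (chr14:13670626-13670875, plus strand), Dynlrb2 (chr8:116504765-116505014, plus strand) and Aqp1 (chr6:55336049-55336298, plus strand).
Ccdc153: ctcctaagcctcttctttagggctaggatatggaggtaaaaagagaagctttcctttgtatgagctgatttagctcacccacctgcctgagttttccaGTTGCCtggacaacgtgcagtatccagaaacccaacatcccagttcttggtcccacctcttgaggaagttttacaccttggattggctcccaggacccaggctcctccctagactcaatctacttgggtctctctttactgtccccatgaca
Pifo: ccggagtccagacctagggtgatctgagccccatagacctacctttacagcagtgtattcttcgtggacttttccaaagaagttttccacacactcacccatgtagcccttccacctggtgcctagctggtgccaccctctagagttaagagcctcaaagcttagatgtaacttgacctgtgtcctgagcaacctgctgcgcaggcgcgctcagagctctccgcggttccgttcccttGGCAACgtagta
Sntn: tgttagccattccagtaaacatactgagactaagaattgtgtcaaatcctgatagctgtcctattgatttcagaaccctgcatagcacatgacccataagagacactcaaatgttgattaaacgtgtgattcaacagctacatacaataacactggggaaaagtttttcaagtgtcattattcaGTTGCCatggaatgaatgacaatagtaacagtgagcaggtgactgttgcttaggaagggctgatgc
Dynlrb2: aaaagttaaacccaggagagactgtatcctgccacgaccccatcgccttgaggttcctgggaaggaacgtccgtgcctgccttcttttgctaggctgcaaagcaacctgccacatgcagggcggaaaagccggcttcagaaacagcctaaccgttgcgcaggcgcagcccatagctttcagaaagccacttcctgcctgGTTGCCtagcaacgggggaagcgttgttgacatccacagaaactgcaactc
Aqp1: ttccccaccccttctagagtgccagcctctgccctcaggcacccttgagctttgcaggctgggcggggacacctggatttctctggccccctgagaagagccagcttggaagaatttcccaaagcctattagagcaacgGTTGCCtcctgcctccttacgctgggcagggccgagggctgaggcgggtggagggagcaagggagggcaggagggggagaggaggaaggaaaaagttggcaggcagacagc
The capitals lie close to the start in Pifo (position -12) and farther from it in Dynlrb2 (-51), Sntn (-66), Aqp1 (-111) and Ccdc153 (-152). A match of 6 letters is a description of the sequence and not a binding site.

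Choroid plexus RNA was high in 5 libraries, intermediate in 1 and low in 14. The 19 choroid members together held 2917 to 3884 CPM in FC2, FC3, MC5, FS3 and MS5, 1130.1 CPM in FS1 and 236 to 532 CPM in the other 14 libraries. The high libraries were 2 of 5 female controls and 1 of 5 in each of the other groups. Ependymal RNA followed this split only in part. The summed level of its members ran from 24.5 CPM in MS3 to 111 CPM in FS1. MC5, a library high in choroid RNA, held 28.0 CPM. The other high libraries FC2, FS3, MS5 and FC3 held 95.1, 91.1, 70.2 and 60.5 CPM, inside the range of the rest. For each tested ependymal member, the median in the 5 high libraries was set against that in the other 15. The median of these ratios was 1.56. A score per library was taken as the mean, over the genes of a set, of the z score of log2 CPM. MC5 (choroid score 1.20, ependymal score -1.56) and FC1 (-0.36 and 1.27) had the largest differences between the scores, in opposite directions.

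**Figure D1:**
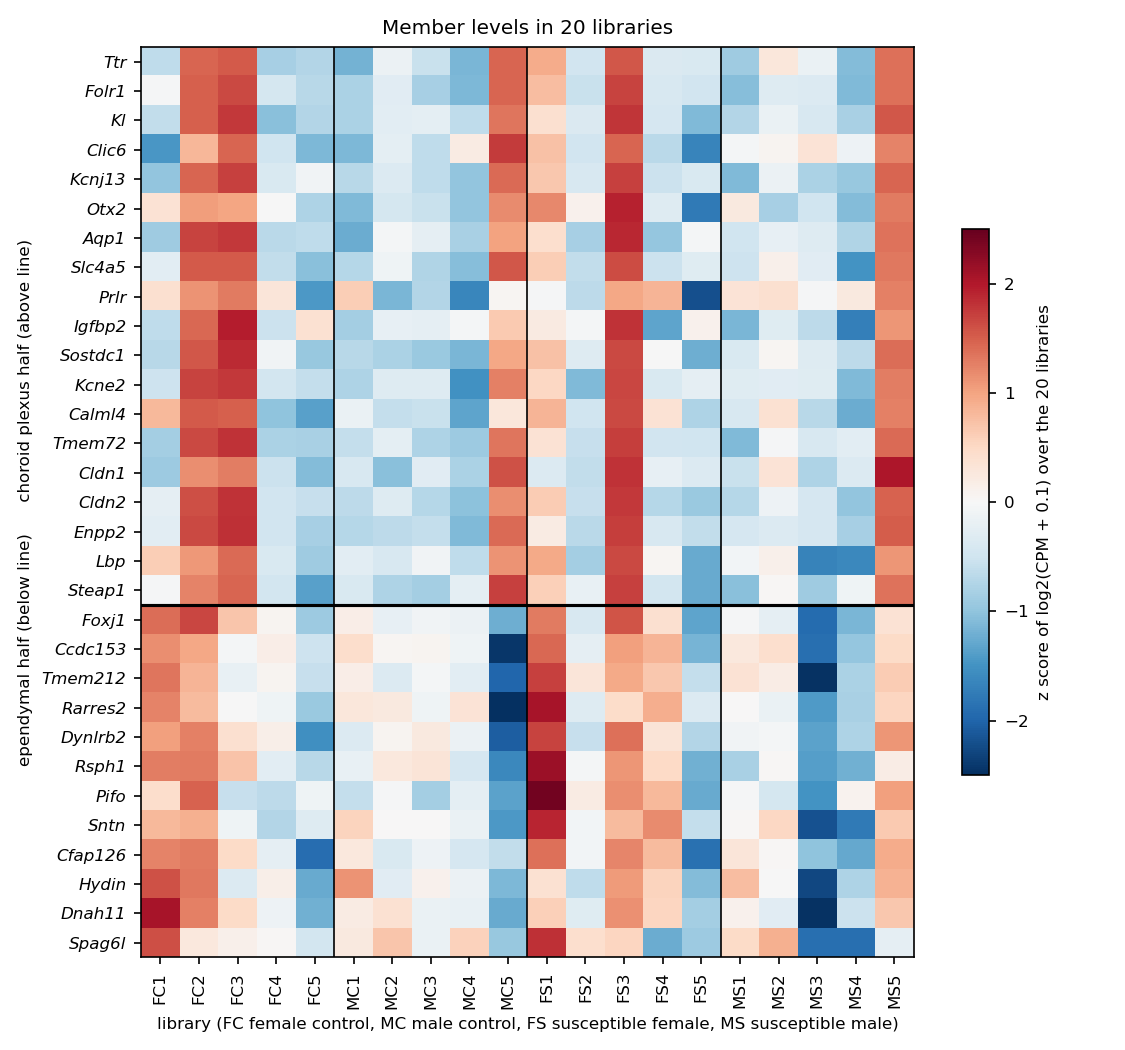
Level of the 31 tested members (rows, choroid plexus genes above the line and ependymal genes under it) in the 20 libraries (columns, by group and replicate), as z scores of log2(CPM + 0.1) over the 20 libraries. Nearly all upper rows are red in FC2, FC3, MC5, FS3 and MS5, whereas the lower rows are red in FC1, FC2, FS1 and FS3 and blue in MC5 and MS3.

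Among secreted proteins, Ttr, the gene of the thyroid hormone carrier transthyretin, had the widest range. Ttr stood at 21.6, 1632, 1945, 14.6 and 17.7 CPM in the female controls, 6.95, 59.5, 25.1, 7.33 and 1672 CPM in the male controls, 542, 30.1, 2006, 37.5 and 36.5 CPM in the susceptible females and 12.7, 143, 58.2, 8.46 and 1406 CPM in the susceptible males, in replicate order. The 5 high libraries held 1406 to 2006 CPM and the lowest, MC1, 6.95 CPM, a 289-fold range, and the 4 groups overlapped. Enpp2, the gene of autotaxin, which makes lysophosphatidic acid and is also expressed by oligodendrocytes, stood at 270.5, 1239, 1409, 226 and 172 CPM in the female controls, 189, 199, 207, 139 and 1022 CPM in the male controls, 394, 196, 1302, 244 and 205 CPM in the susceptible females and 239, 253, 239, 173 and 1097 CPM in the susceptible males. Its level outside the 5 high libraries, 139 to 394 CPM, gave it a base that Ttr lacked, and its range was 10.1-fold.

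Igfbp2, which binds insulin-like growth factors, also had such a base. Igfbp2 stood at 13.3, 43.7, 59.4, 14.1 and 23.8 CPM in the female controls, 11.8, 17.0, 17.0, 18.7 and 28.0 CPM in the male controls, 21.8, 18.8, 54.2, 9.03 and 20.5 CPM in the susceptible females and 9.93, 16.1, 13.3, 7.16 and 36.1 CPM in the susceptible males. It was highest in FC3, FS3 and FC2, and its levels in MC5 (28.0 CPM) and in FC5 (23.8 CPM), a library low in choroid RNA, were close. Sostdc1, an antagonist of BMP and WNT signals, ran from 1.37 to 24.05 CPM with a median of 3.23 CPM. Lbp, which binds bacterial lipopolysaccharide, ran from 1.45 CPM in MS3 to 24.8 CPM in FS3.

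The transporters and channels were high in the same 5 libraries. Folr1, the folate receptor that carries folate into the fluid, stood at 1.36, 15.3, 19.3, 0.699 and 0.431 CPM in the female controls, 0.366, 0.910, 0.335, 0.172 and 14.3 CPM in the male controls, 4.89, 0.559, 20.9, 0.725 and 0.650 CPM in the susceptible females and 0.203, 0.856, 0.821, 0.185 and 12.6 CPM in the susceptible males. It was over 12 CPM in each of the 5 high libraries, 4.89 CPM in FS1 and at most 1.36 CPM elsewhere, where fewer than 30 counts stood behind each value. Aqp1, the apical water channel, stood at 0.454, 16.8, 18.3, 0.635 and 0.677 CPM in the female controls, 0.244, 1.58, 1.21, 0.516 and 6.63 CPM in the male controls, 3.04, 0.497, 21.5, 0.390 and 1.59 CPM in the susceptible females and 0.811, 1.25, 1.07, 0.555 and 10.7 CPM in the susceptible males. Among the high libraries Aqp1 was lowest in MC5. Kcnj13, an inward rectifier potassium channel of the apical membrane, stood at 0.170, 6.63, 9.34, 0.508 and 0.800 CPM in the female controls, 0.305, 0.546, 0.335, 0.172 and 6.32 CPM in the male controls, 2.31, 0.497, 9.35, 0.390 and 0.505 CPM in the susceptible females and 0.135, 0.724, 0.253, 0.185 and 6.72 CPM in the susceptible males. All libraries outside the 5 and FS1 were under 1 CPM for Kcnj13.

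The other ion carriers gave the same split of libraries with different base levels. Slc4a5, a sodium bicarbonate cotransporter, was 15.01 to 25.7 CPM in the high libraries, 4.17 CPM in FS1 and at most 1.71 CPM in the rest; MS4 had 0 counts, which allows up to 0.186 CPM by 3 counts, for counting error only. Kcne2, a potassium channel subunit, had medians of 16.5 CPM in the 5 high and 0.725 CPM in the other 15 libraries. Clic6, of the chloride intracellular channel family, had the narrowest range of the choroid members, with medians of 70.7 and 31.9 CPM in these libraries and a 4.06-fold range over all 20.

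Receptors and the transcription factor were less uniform. Kl, the klotho co-receptor for FGF23, had medians of 89.0 CPM in the 5 high and 7.89 CPM in the other 15 libraries. Prlr, the prolactin receptor, ran from 5.13 CPM in FS5 to 71.7 CPM in FC3, and MC5 (27.9 CPM) lay among the libraries low in choroid RNA. Otx2, a homeobox factor that choroid epithelium keeps in the adult, stood at 8.80, 13.9, 13.4, 6.80 and 4.06 CPM in the female controls, 3.23, 5.09, 4.69, 3.49 and 15.2 CPM in the male controls, 15.5, 7.40, 25.3, 5.52 and 2.02 CPM in the susceptible females and 8.11, 3.89, 4.86, 3.27 and 16.5 CPM in the susceptible males. FS1 (15.5 CPM) exceeded 3 of the high libraries for Otx2, so that the 5 and the other 15 overlapped.

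Both tight junction genes were highest in the 5 libraries, but not in the same order. Cldn2, a claudin that forms pores for cations and water, stood at 0.794, 13.4, 18.0, 0.508 and 0.431 CPM in the female controls, 0.366, 0.667, 0.335, 0.172 and 6.75 CPM in the male controls, 3.04, 0.435, 16.7, 0.335 and 0.217 CPM in the susceptible females and 0.338, 0.922, 0.568, 0.185 and 10.9 CPM in the susceptible males. Cldn1, a sealing claudin, stood at 1.31, 7.32, 8.02, 1.78 and 1.11 CPM in the female controls, 2.01, 1.15, 2.21, 1.43 and 10.3 CPM in the male controls, 2.12, 1.68, 12.3, 2.34 and 2.09 CPM in the susceptible females and 1.76, 3.69, 1.45, 2.10 and 14.7 CPM in the susceptible males. Cldn2 was lowest of the 5 in MC5, at 6.75 CPM, whereas Cldn1 was higher in MC5 (10.3 CPM) than in FC2 (7.32 CPM) or FC3 (8.02 CPM). The rest of the choroid set, Tmem72, the calmodulin-like gene Calml4 and the metalloreductase Steap1, had medians of 26.8, 6.36 and 3.58 CPM in the 5 libraries and 0.746, 1.07 and 0.446 CPM in the other 15. Because these libraries were picked out by the choroid genes themselves, the separation is a description and was given no test. In 16 of 19 choroid members no library of the 5 overlapped the other 15, the exceptions being Otx2, Prlr and Calml4, and in 0 of 12 ependymal members. Of all 14884 genes tested, 107 (0.719%) were higher in each of the 5 than in any of the 15, a share given for scale, since the choroid members made the split.

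**Figure D2:**
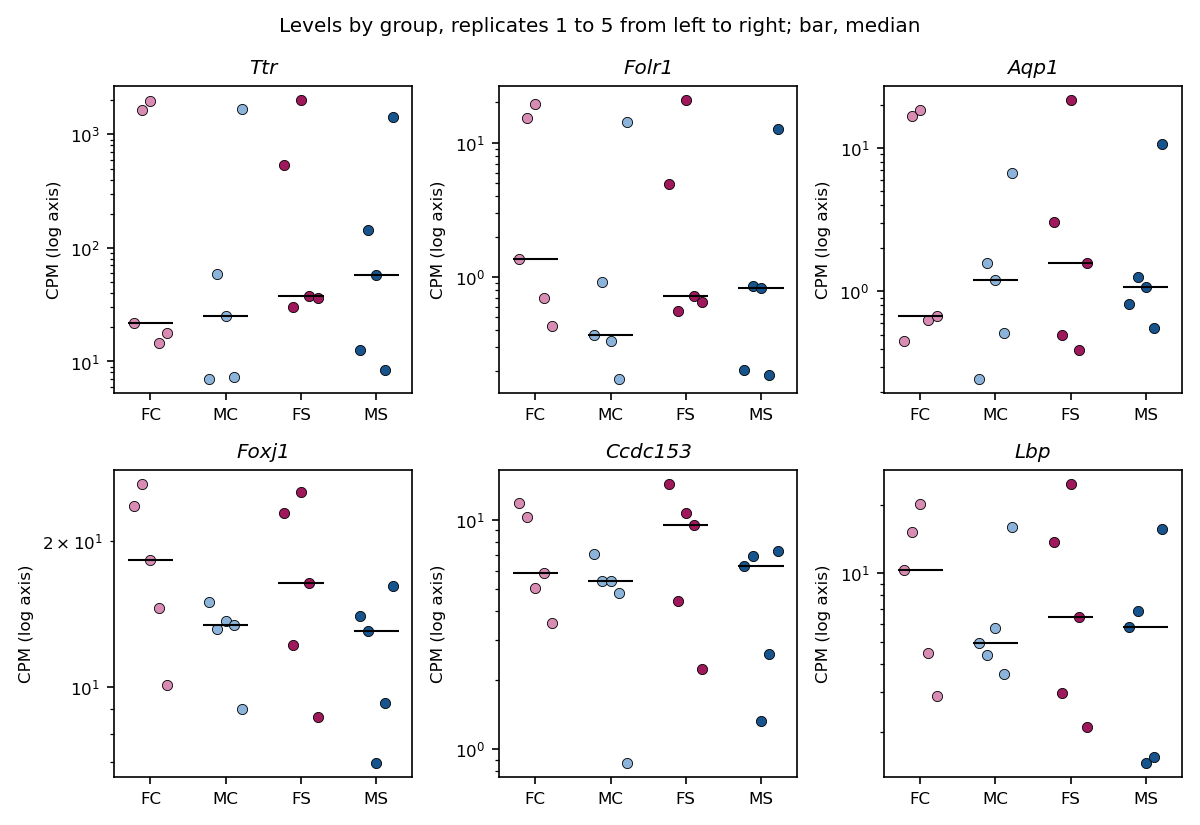
CPM on a log axis of Ttr, Folr1, Aqp1, Foxj1, Ccdc153 and Lbp in each library, by group (FC, MC, FS and MS, replicates 1 to 5 from left to right), with a bar at the group median. Ttr, Folr1 and Aqp1 show 1 or 2 points per group far above the rest, while Foxj1 lies between 6.95 and 26.2 CPM with no such gap.

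Per kilobase of exon, so that genes can be compared, Ttr had a median of 1410.1 CPM per kb in the 5 high libraries and Enpp2 214 CPM per kb. They were followed by Igfbp2 at 23.7, Clic6 at 18.1, Sostdc1 at 10.3 and Kl at 9.54 CPM per kb. Tmem72 was lowest of the choroid set at 1.56 CPM per kb. The length takes in all annotated exons of a gene, 17177 bases for Tmem72 and 3642 for Calml4, so such ranks depend on the annotation. By CPM the median of Tmem72 in these libraries, 26.8, lay above that of Calml4, 6.36. Foxj1, the highest ependymal member in the same libraries, had a median of 6.97 CPM per kb, and Dnah11 was lowest among tested ependymal members at 0.296 CPM per kb.

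The composition of the choroid RNA was compared across the 5 high libraries by setting each gene against 1000 CPM of Ttr. Some members kept a narrow ratio: Folr1 ran from 8.55 to 10.4 CPM per 1000 CPM of Ttr, a 1.22-fold range. Kcnj13 (1.27-fold), Enpp2 (1.28-fold), Slc4a5 (1.29-fold) and Lbp (1.32-fold) were nearly as narrow. Others differed between libraries, and MC5 was often the lowest. Aqp1 was 3.96 CPM per 1000 CPM of Ttr in MC5 and 7.58 to 10.7 in the other 4, Cldn2 4.04 in MC5 and 7.72 to 9.23 in the others, and Calml4 1.33 in MC5 and 3.27 to 4.02 in the others. Prlr (16.7 in MC5, highest 49.2 in MS5) and Sostdc1 (6.30 in MC5, highest 12.4 in FC3) were lowest in MC5 too. Cldn1 was highest in MS5, at 10.4 against 4.12 in FC3. In FS1, the intermediate library, Folr1 stood at 9.03 and Enpp2 at 727 per 1000 CPM of Ttr, inside the ranges of the 5. Among those above their range there were Clic6 (97.0), Otx2 (28.6) and Lbp (25.5). Among those below their range there were Tmem72 (6.47, against 9.96 to 17.3 in the 5), Slc4a5 (7.69, against 10.7 to 13.8) and Cldn1 (3.90, against 4.12 to 10.4). These ratios hold the base level of each gene, its median in the other 15 libraries. With that base subtracted from both genes, the range of Folr1 was 1.23-fold, of Clic6 2.04-fold in place of 1.42-fold, and of Prlr 30.9-fold in place of 2.95-fold. In FS1 the ratio of Clic6 holds a base of 31.9 CPM. With 1 library for each such ratio, none of these differences has a replicate check.

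In the ependymal set, Foxj1, the forkhead factor that directs the program of motile cilia, had the highest level per kilobase. Foxj1 stood at 23.7, 26.2, 18.3, 14.5 and 10.1 CPM in the female controls, 14.996, 13.2, 13.7, 13.4 and 8.98 CPM in the male controls, 22.9, 12.2, 25.2, 16.4 and 8.66 CPM in the susceptible females and 13.99, 13.0, 6.95, 9.26 and 16.1 CPM in the susceptible males. It was over 22 CPM in FC1, FC2, FS1 and FS3 and lowest in MS3, a 3.77-fold range. Ccdc153, a coiled-coil gene of ciliated cells, stood at 11.8, 10.3, 5.03, 5.84 and 3.57 CPM in the female controls, 7.07, 5.40, 5.43, 4.81 and 0.867 CPM in the male controls, 14.3, 4.41, 10.7, 9.48 and 2.24 CPM in the susceptible females and 6.28, 6.98, 1.33, 2.59 and 7.31 CPM in the susceptible males. Its highest level was in FS1 (14.3 CPM) and its lowest in MC5 (0.867 CPM).

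Tmem212, a membrane protein gene used as an ependymal marker, stood at 6.92, 4.78, 2.19, 2.67 and 1.60 CPM in the female controls, 2.87, 1.94, 2.41, 2.06 and 0.495 CPM in the male controls, 9.26, 3.17, 5.19, 4.18 and 1.59 CPM in the susceptible females and 3.31, 2.90, 0.316, 1.36 and 4.08 CPM in the susceptible males. It was highest in FS1 and FC1 and lowest in MS3 and MC5, as Ccdc153 was at its high and low ends. Rsph1, of the radial spoke head, stood at 9.48, 9.56, 7.49, 4.95 and 4.12 CPM in the female controls, 5.12, 6.18, 6.37, 4.64 and 2.79 CPM in the male controls, 13.6, 5.41, 8.80, 6.86 and 3.32 CPM in the susceptible females and 3.92, 5.597, 3.09, 3.33 and 5.99 CPM in the susceptible males. Rarres2, the gene of the secreted protein chemerin, stood at 8.97, 7.26, 4.97, 4.76 and 3.20 CPM in the female controls, 5.73, 5.64, 4.76, 5.90 and 1.36 CPM in the male controls, 13.3, 4.29, 6.21, 7.70 and 4.26 CPM in the susceptible females and 5.0001, 4.61, 2.53, 3.39 and 6.45 CPM in the susceptible males. FS1 was highest for Rsph1 and Rarres2 as well, and MC5 was the lowest library for both.

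Of the other axoneme and cilium genes, Spag6l, Cfap126, Dynlrb2, Pifo and Sntn were highest in FS1, and Hydin and Dnah11 were not. Hydin, of the central pair, ran from 1.26 CPM in MS3 to 12.5 CPM in FC1, and Dnah11, a dynein heavy chain, from 0.695 CPM in MS3 to 9.19 CPM in FC1. Hydin and Dnah11 were therefore highest in FC1 and not in FS1. Spag6l, also of the central pair, stayed between 5.49 and 10.4 CPM, a 1.89-fold range and the narrowest of the 31 tested members. Cfap126, which docks basal bodies, ran from 0.923 to 5.29 CPM, and the dynein light chain Dynlrb2 from 0.434 to 4.10 CPM. Pifo, of ciliary disassembly, had 9 to 60 counts per library and Sntn, of the ciliary tip, 1 to 50, so their values carry more counting error. Mia had 18 counts in all, at most 3 in a library, and 0 counts in 9 libraries, each of which allows up to 0.17 to 0.205 CPM. It was not detectable as an ependymal marker at this depth.

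The spread of the members was set beside that of all genes tested. Over the 20 libraries the SD of log2 CPM ran from 0.59 to 2.99 in the choroid set (median 1.40) and from 0.24 to 1.06 in the ependymal set (median 0.75), where the median of all 14884 genes tested was 0.21. The 95th percentile of all genes, 0.74, was passed by 18 of 19 choroid and 6 of 12 ependymal members. Groups accounted for 5.25% of the variance of the choroid score and 16.1% of that of the ependymal score, and for a median of 20.03% over single genes. The spread therefore lay mostly inside the groups.

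Members of each set varied together over the 20 libraries, and members of different sets did so weakly. The median Pearson r of log2 CPM was 0.86 over the 171 choroid pairs and 0.81 over the 66 ependymal pairs, where r passed 0.5 in 168 and 65 pairs. Between the sets the median was 0.32 over 228 pairs, of which 36 (15.8%) passed 0.5, against a median of -0.000785 and 7.61% for all pairs of genes tested. An r above 0 was found in 222 of the 228 pairs, where 55285499 of 110759286 pairs of all genes had one. All genes of a library share its tissue sample and its depth, so these values describe the 20 libraries and carry no p. With group means removed the 3 medians were 0.87, 0.82 and 0.29. The 5 high libraries form a cluster of their own, so the relation was also read in the other 15. There the median fell to 0.50 within the choroid set, stayed at 0.82 within the ependymal set and was 0.42 between them, with 37.3% of the pairs between sets past 0.5.

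In those 15 libraries the 2 scores had an r of 0.65 and a rho of 0.59, where r was 0.38 over all 20 libraries and 0.34 there with group means removed. Leaving out the 2 libraries farthest from the median choroid score gave an r of 0.49, and leaving out FS1 alone gave 0.45. The score relation in these 15 libraries thus drew in part on FS1, which was highest of the 15 for both. The r over all 20 libraries includes MC5 (choroid score 1.20, ependymal score -1.56), whose part in that value was not tested. With 5 libraries, no r was computed in the high cluster, where the ependymal score ran from -1.56 in MC5 through 0.13 in FC3, 0.60 in MS5 and 1.03 in FS3 to 1.11 in FC2. For the single genes Ttr and Foxj1, r was 0.22 (2-sided permutation p = 0.430) and rho -0.08 (p = 0.781) in the 15 libraries, both with an adjusted p of 0.781 over these 2 tests. Leaving out the 2 libraries farthest from the median Ttr level turned r to -0.23. The 15 libraries were set apart by a score that holds Ttr, which narrowed the range of Ttr in them. Over all 20 libraries, as first planned, the r of Ttr and Foxj1 was 0.40 (2-sided permutation p = 0.0804), a value that spans the cluster of 5. The 14 libraries lowest in choroid RNA had ependymal scores from 1.27 in FC1 to -1.80 in MS3.

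**Figure D3:**
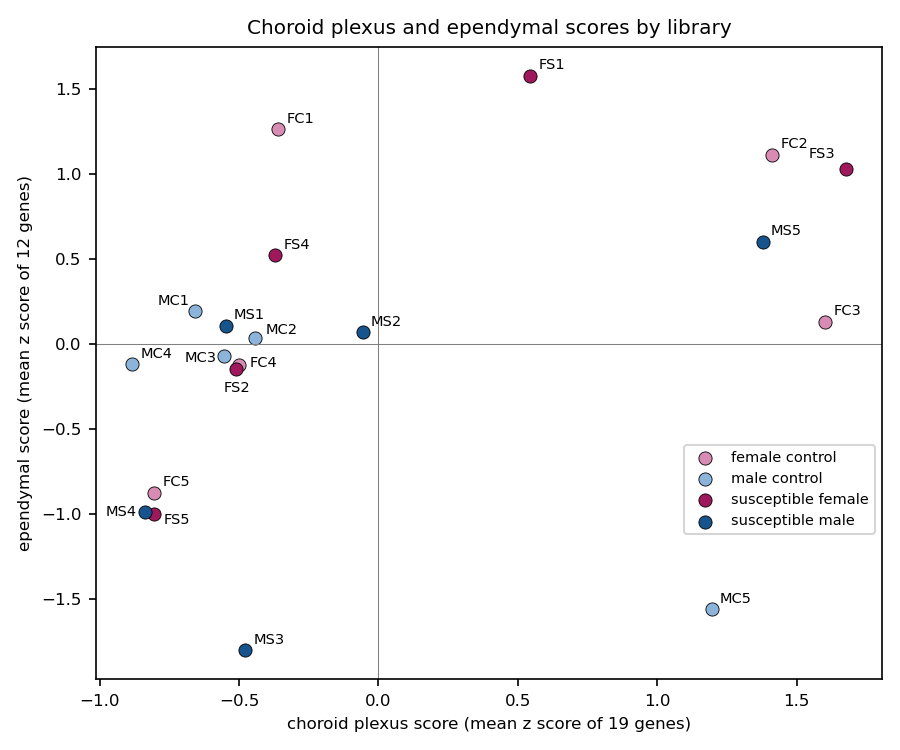
Choroid plexus score (x axis, mean z score of log2 CPM of 19 genes) against ependymal score (y axis, mean z score of 12 genes) of each library, coloured by group. The 5 high libraries stand to the right of a choroid score of 1, of which MC5 lies near the bottom at an ependymal score of -1.56, and FC1 lies high on the left at 1.27.

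In the 15 libraries of lower choroid RNA some choroid members were as close to the ependymal as to the choroid score. Lbp had an r of 0.95 with the ependymal score and 0.65 with the choroid score, itself left out, in those libraries. Its level there was highest in FS1 (13.8 CPM) and FC1 (10.3 CPM), the 2 libraries highest for ependymal genes. Calml4 (0.77 and 0.75), Otx2 (0.67 and 0.67) and Steap1 (0.64 and 0.59) were about as close to either score. Over all 20 libraries these members were closer to the choroid score, with an r of 0.86 for Lbp, 0.87 for Calml4, 0.86 for Otx2 and 0.92 for Steap1. With the ependymal score they had 0.65, 0.65, 0.50 and 0.36. By contrast Igfbp2 (0.06 with the ependymal and 0.10 with the choroid score), Prlr (0.38 and 0.29), Cldn1 (0.15 and 0.31) and Clic6 (0.05 and 0.39) followed neither closely once the 5 high libraries were left aside. Cldn2 (0.93), Enpp2 (0.90), Folr1 (0.85), Ttr (0.85) and Slc4a5 (0.85) stayed close to the choroid score there. Of the ependymal set, Foxj1 (0.98) and Ccdc153 (0.97) were nearest to the ependymal score, and Rsph1 had the highest r with the choroid score (0.77).

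**Figure D4:**
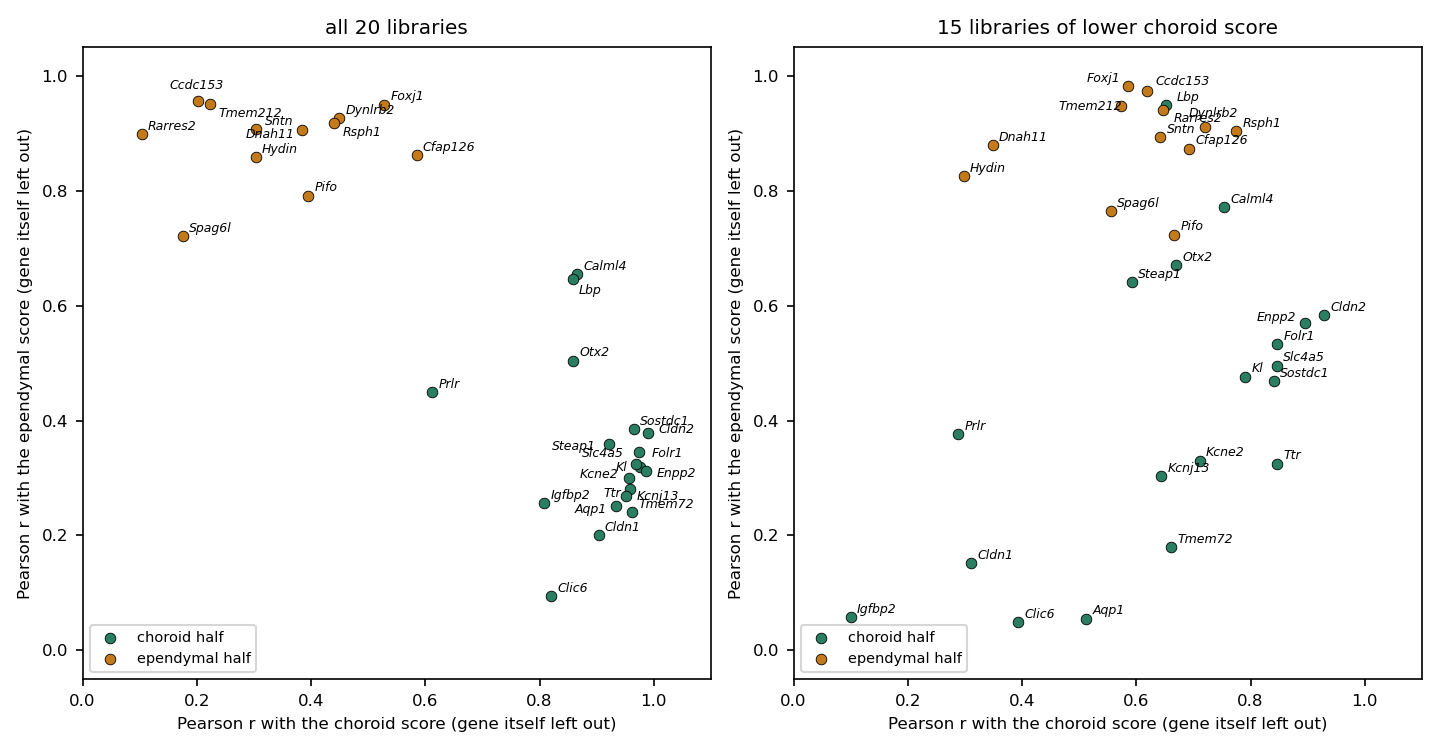
Pearson r of each member with the choroid score (x axis) and the ependymal score (y axis), the gene itself left out of its score, over all 20 libraries (left) and the 15 of lower choroid score (right), with choroid members in green and ependymal members in orange. The colours form 2 separate groups on the left, and on the right Lbp (r of 0.95 with the ependymal score) lies among the ependymal members.

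Further genes of both cell types, taken from lists of known markers, were set against the same scores. The lists were chosen with earlier results of these data known, so the counts are a description and no independent check of the scores. Of 30 other choroid plexus genes, 27 had an r over 0.5 with the choroid score, with a median of 0.91, where 7.42% of all genes tested passed 0.5. Mfrp (0.97), the clotting factor gene F5 (0.97) and 1500015O10Rik, listed as Ecrg4 (0.96), were closest, and Car12 (0.17) and the serotonin receptor gene Htr2c (-0.06) were least alike. Htr2c, which neurons also express, stayed between 109.6 and 161 CPM. The 8 genes outside the members most like the choroid score all came from that list, the others being Slc31a1 (0.96), Cab39l (0.94), Col8a1 (0.94), Trpv4 (0.94) and Msx1 (0.94).

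Of 64 other motile cilium genes, 55 had an r over 0.5 with the ependymal score, with a median of 0.82, where 12.8% of all genes passed. Cfap52 (0.96), Lrrc23 (0.96) and Ttc29 (0.95) were closest, and the 8 most alike went on with Ak7 (0.94), Wdr63 (0.93), Fam216b (0.93), 2410004P03Rik (0.93) and Ttc16 (0.92), of which the last 3 were not on the list. The least alike were Rfx3 (-0.76) and Mcidas (-0.71). Rfx3, an RFX factor with 42.6 to 91.3 CPM, thus ran against the ependymal score while Rfx2 (0.85), with 2.59 to 8.12 CPM, ran with it. Drc7 followed the choroid score (0.88) more than the ependymal score (0.69).

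Some markers of neighbouring cells moved with the scores, and only the thalamic ones did so mostly with both. Their part in these results was not tested. Of 13 thalamic neuron markers, 11 had an r over 0.5 with the choroid score and 12 with the ependymal score over 20 libraries, and their summed level ran from 321 to 2043 CPM. Among the 15 libraries of lower choroid RNA the thalamic score had an r of 0.14 with the choroid score and 0.57 with the ependymal score. Over all genes tested, 12.8% passed 0.5 with the ependymal score and 7.42% with the choroid score. Of 15 oligodendrocyte markers, 12 passed 0.5 with the ependymal score, and 2 with the choroid score, with a summed level of 3961 to 10777 CPM. The oligodendrocyte score had an r of 0.58 with the ependymal score over 20 libraries and 0.36 over the 15. Of 15 astrocyte markers, 3 passed it with the ependymal and 2 with the choroid score, and of 18 meningeal and fibroblast markers 5 with the choroid score and 0 with the ependymal score. The astrocyte score had an r of 0.56 with the ependymal score over 20 libraries and 0.54 over the 15. The meningeal score had 0.43 and -0.13 with the choroid score. Among 13 striatal, 15 endothelial and 13 cortical markers, only 1 cortical gene passed 0.5 with either score, and 2 of 13 hypothalamic markers did so, with the ependymal score. Other markers ran against the scores. An r under -0.5 with the ependymal score was found in 5 of 13 striatal, 5 of 13 cortical, 2 of 15 endothelial and 2 of 18 meningeal markers, where 11.8% of all genes had one, and the striatal score had an r of -0.51 with the ependymal score. The list of 16 GABA neuron genes of the subpallium is not particular to BNST. Of these 16, 0 passed 0.5 with the choroid score and 6 were under -0.5, where 6.73% of all genes were. Gad1 (-0.51) and Gad2 (-0.56) were among the 6. The median r of the 16 with the choroid score was -0.44. Their score had an r of -0.44 with the choroid score over 20 libraries and 0.34 over the 15 of lower choroid RNA. With the ependymal score 1 of the 16 passed 0.5 (Zic1, 0.78) and 1 was under -0.5 (Meis2, -0.54). No marker of these lists was at 0 in all libraries.

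Stress was compared within each sex, with edgeR's quasi-likelihood test over all 20 libraries and Benjamini-Hochberg adjustment over 14884 genes. In females, 0 of 31 members passed an adjusted p of 0.05, as did 0% of all genes tested. At an unadjusted p under 0.05 the count was again 0 of 31, where 5.85% of all genes passed, and DESeq2 and limma voom each called 0 members and 0% of all genes. Mean Ttr was 726 ± 976 CPM (SD, n = 5) in controls and 530.4 ± 854 CPM in susceptible females, a log2 fold change of -0.46 ± 1.77 (SE), where the SE exceeded the change. Mean Foxj1 was 18.6 ± 6.57 and 17.1 ± 6.98 CPM, a log2 fold change of -0.12 ± 0.29. The choroid set had a median log2 fold change of -0.42 and the ependymal set 0.12, beside 0.01 over all genes. The members with the smallest p were Sntn (0.76 ± 0.60), Pifo (0.49 ± 0.40) and Dnah11 (-0.37 ± 0.44), with adjusted p-values of 0.790, 0.791 and 0.845 in edgeR. Without the 5 high libraries the log2 fold change of Ttr was 3.17 (adjusted p = 0.999 in edgeR), in the other direction. Of the female libraries left then, FS1 held 542 CPM of Ttr and the others at most 37.5 CPM.

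In males, 0 of 31 members passed, as did 0% of all genes, and at an unadjusted p under 0.05 the count was 0 of 31 where 9.67% of all genes passed. Limma voom called 0 members where it called 4.86% of all genes. DESeq2 called 0.534% of the 4496 genes to which it gave an adjusted p, and of the 31 members only 2, Ttr and Enpp2, had one, so its count of 0 called members says nothing about the other 29. Mean Ttr was 354 ± 737 CPM (SD, n = 5) in controls and 326 ± 606 CPM in susceptible males, a log2 fold change of -0.13 ± 1.77. Mean Foxj1 was 12.8 ± 2.27 and 11.9 ± 3.71 CPM, a log2 fold change of -0.12 ± 0.30. Prlr (0.92 ± 0.58), Calml4 (0.69 ± 0.75) and Pifo (0.39 ± 0.42) had the smallest p, with adjusted p-values of 0.639, 0.789 and 0.789 in edgeR. Median log2 fold changes were 0.18 for the choroid set, -0.06 for the ependymal set and -0.01 for all genes. Without the 5 high libraries Ttr had a log2 fold change of 1.18 (adjusted p = 0.953 in edgeR), again in the other direction.

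**Figure D5:**
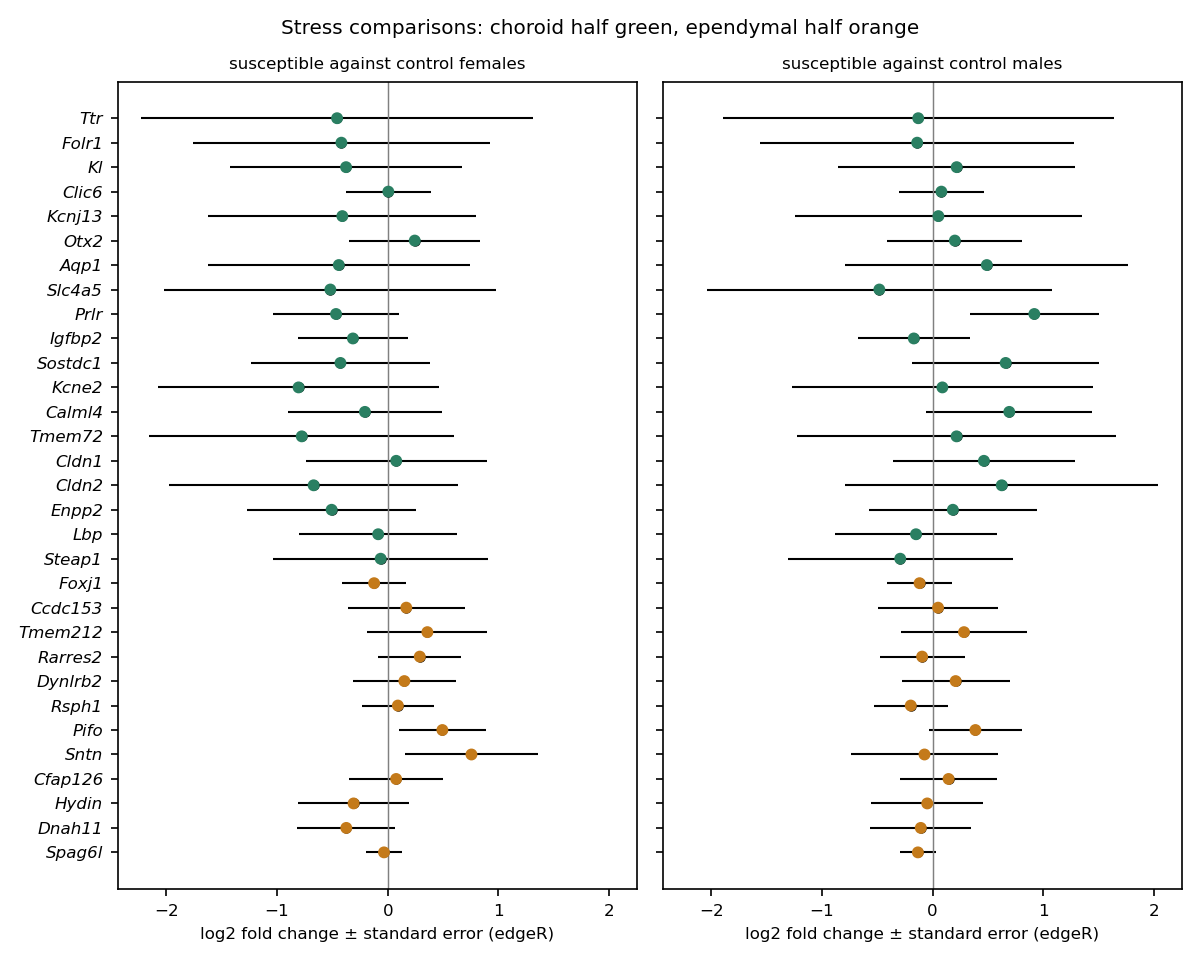
Log2 fold change ± standard error (edgeR) of each tested member between susceptible and control females (left) and males (right), choroid members in green and ependymal members in orange. No member passed the test in either sex, and the error of Ttr spans 1.77 on each side.

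The stress effect in females minus that in males was tested as an interaction, and 0 of 31 members passed, as did 0% of all genes. At an unadjusted p under 0.05 the count was 0 of 31, where 8.26% of all genes passed, and DESeq2 and limma voom called 0% of all genes. Prlr had the smallest p, with a difference of -1.39 ± 0.82 on the log2 scale (adjusted p = 0.602 in edgeR), from -0.47 ± 0.57 in females and 0.92 ± 0.58 in males. Sostdc1 (-1.09 ± 1.17) and Sntn (0.83 ± 0.90) followed, with adjusted p-values of 0.746 and 0.747 in edgeR. The interaction is built from the same libraries as both stress comparisons.

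Between the sexes, most members had a negative log2 fold change of male against female in both conditions, and none passed the edgeR test. In controls 0 of 31 members were called with edgeR, where 0.511% of all genes were, and at an unadjusted p under 0.05 the count was 0 of 31 against 19.2% of all genes. The log2 fold change of male against female controls was below 0 in 18 of 19 choroid members (median -1.02) and in 12 of 12 ependymal members (median -0.53), beside a median of -0.00257 over all genes. Members of a set varied together over the libraries, so these counts of signs are not counts of separate observations. The choroid values go with 2 high libraries in the female and 1 in the male controls, whose part was not tested. Calml4 (-1.47 ± 0.74), Foxj1 (-0.53 ± 0.29) and Prlr (-1.02 ± 0.58) had the smallest p, with adjusted p-values of 0.280, 0.321 and 0.332 in edgeR. DESeq2 called 0 of the 30 members to which it gave an adjusted p, where 3.25% of all genes were called. Limma voom with quality weights called 2 of 31 members, where it called 22.4% of all genes. They were Prlr (-1.62, adjusted p = 0.0248) and Enpp2 (-1.63, adjusted p = 0.049), the latter named after its value was seen.

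In susceptible mice 0 of 31 members were called with edgeR, where 0.047% of all genes were. DESeq2 and limma voom called 0 members, and 0.101% and 0.0672% of all genes. At an unadjusted p under 0.05 the count was 1 of 31, Rsph1, where 6.28% of all genes passed. Mean Rsph1 was 7.60 ± 3.92 CPM (SD, n = 5) in females and 4.39 ± 1.33 CPM in males, with overlapping groups. The log2 fold change of Rsph1 was -0.79 ± 0.33 (adjusted p = 0.774 in edgeR). Sntn (-1.23 ± 0.63) and Rarres2 (-0.70 ± 0.38) followed, with adjusted p-values of 0.781 and 0.808 in edgeR. The sign was negative in 16 of 19 choroid members (median -0.61) and in 12 of 12 ependymal members (median -0.65), beside a median of -0.02 over all genes. Here too members of a set are not separate observations.

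Group values overlapped for all 31 tested members in each of the 4 pairings of groups: 0 of 31 stood apart, where 0.464% of all genes stood apart between control and susceptible females, 2.45% between control and susceptible males, 3.86% between the sexes in controls and 0.773% in susceptible mice. Of the 30 other choroid plexus genes and the 64 other motile cilium genes, 0 were called with edgeR in any of the 5 comparisons. At an unadjusted p under 0.05 the highest counts were 2 of 30, for the difference between the stress effects, where 8.26% of all genes passed, and 6 of 64, for male against female controls, where 19.2% did. Of the other motile cilium genes, 55 of 64 had a negative log2 fold change of male against female in controls (median -0.27) and 54 of 64 in susceptible mice (median -0.25). The medians over all genes were -0.00257 and -0.02. Most of these cilium genes varied with the ependymal score, so they are not separate observations.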

How the data were processed

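The authors deposited, for each library, a table of counts by gene that holds whole numbers with unequal totals and so is not normalized. Per the labels' protocols, libraries were made from polyadenylated RNA. Per the submitters' processing notes, HISAT2, featureCounts and the mm10 assembly were used; for their versions, the annotation and the strand setting the entry is: not given in the sources used here. Reads of overlapping or near-identical genes therefore cannot be separated. Of 19214 genes, 19206 were matched by identifier to GENCODE M21 (GRCm38). Groups and replicate numbers came from the sample titles.

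CPM were taken over each library's total multiplied by its TMM factor, while the limits for a count of 0 used the total alone. Counts were filtered with filterByExpr and scaled by TMM, and edgeR 4.0.16 (R 4.3.3) fitted a robust quasi-likelihood model with a mean for each group to the 20 libraries, with Benjamini-Hochberg adjustment over 14884 genes and a threshold of 0.05. Standard errors were derived from the log2 fold changes and their F statistics (size of the change divided by the root of F). The code was tested on simulated data. Scores used log2 CPM with TMM and a prior count of 2. Correlation p-values came from 100000 permutations. The design set the correlation over all 20 libraries, but these fall into separate clusters. The 15 libraries below the widest gap of the choroid score are therefore reported and the 20 are an alternative, a choice made after seeing the data. The widest gap, just above FS1, was 0.652 and the second, just below FS1, was 0.600. The placing of FS1 among the 15 thus rests on a small difference. Total counts limit precision, and limits for a count of 0 (3 counts) cover counting error only, since reads carry no molecular identifiers. No 2 libraries of a group agreed within sampling noise (smallest chi-square per degree of freedom 5.77 over 40 pairs).

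The members and lists were chosen with earlier results of these data known. In each comparison the 3 members with the smallest p were named, beside Ttr and Foxj1. For each set the 8 genes most like its score were named, and of each further list the 3 most and 2 least alike. Rfx2, Drc7 and the members singled out by ratio or by correlation were named after their values were seen. Alternatives were DESeq2 1.42.0, its size factors, limma 3.58.1 voom with quality weights, 2 other count filters, the replicate block and leaving out each library. Leaving out the 5 libraries of high choroid score was added after seeing the data.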

Additional observations from a re-analysis of the deposited data

Results flagged for a closer look

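Within each group of 5 libraries, members and scores were checked for a library far from the others by Dixon's test, with a critical value of 0.71, on log2 CPM for genes. Of 132 checks 17 stood out. A rate of about 1 in 20 holds for separate checks, and these are not, since members of a set varied together. The choroid flags also fall on libraries already picked out by these genes. Most of the 17 concern MC5. Among male controls MC5 was far above the others for Kl (69.5 CPM), Kcnj13 (6.32 CPM), Sostdc1 (10.5 CPM), Cldn1 (10.3 CPM), Enpp2 (1022 CPM) and Steap1 (4.65 CPM), and for the choroid score (1.20). The same library was far below the others for the ependymal genes Foxj1 (8.98 CPM), Ccdc153 (0.867 CPM), Tmem212 (0.495 CPM), Rarres2 (1.36 CPM) and Dynlrb2 (0.434 CPM), and for the ependymal score (-1.56). Among susceptible males MS5 was far above the others for Kl (89.0 CPM), Aqp1 (10.7 CPM) and Enpp2 (1097 CPM). Among susceptible females FS3 was far above the others for Cldn1 (12.3 CPM). No female control stood out in this way; that group holds 2 libraries of high choroid RNA, which lie beside each other.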

How the results depend on the processing

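The 0 calls among members held in all 5 comparisons under every alternative run except limma voom with quality weights, which called 2 members between male and female controls; for stress in males DESeq2 gave an adjusted p to 2 of 31 members. Counts over all genes moved more. For stress in males (0 called), DESeq2 called 24 and limma voom 723. Between male and female controls (76 called), DESeq2 called 455, limma voom 3333, the fit without a count filter 38 and the fit without the 5 libraries of high choroid score 5. Between susceptible males and females (7 called), DESeq2 called 15 and the replicate block 4. Leaving out each library in turn gave 0 to 2 genes for stress in females (2 without FS4), 6 to 458 for male against female controls and 6 to 20 for susceptible mice (20 without FS4). The control count fell to 9, 14, 6 and 13 without FC1, FC2, FC3 and FC4, to 11, 25 and 23 without MC2, MC3 and MC5, to 41 without FS3 or FS4 and to 37, 35 and 34 without MS1, MS3 and MS4, and rose to 458 without FC5 and 193 without MC1. The causes were not tested.

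The log2 fold change of Ttr turned positive for stress in females with the replicate block (0.59) and without the 5 libraries (3.17), and in males with limma voom (0.19), the block (0.31) and without the 5 libraries (1.18). Leaving out 1 library gave -2.17 to 0.33 in females, positive without FC2 (0.08) or FC3 (0.33), and -2.68 to 3.72 in males, positive without MC5 (3.72), MS1 (0.18), MS2 (0.06), MS3 (0.14) or MS4 (0.19). Foxj1 ran from -0.31 to 0.043 in females, positive without FC2 (0.034) or FS5 (0.043), and from -0.25 to 0.025 in males, positive without MS3 (0.025), and Dnah11 from -0.60 to 0.033 in females, positive without FC1 (0.033). None of these passed the test. Of 509 values of named members with an adjusted p under the alternatives, 492 kept their direction and side of the threshold.

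The correlation of the scores was 0.38 over all 20 libraries, 0.34 with group means removed, 0.62 with the replicate block, 0.83 on CPM, and 0.45 (without FS1) to 0.79 without each of the 15 libraries. That of Ttr and Foxj1 was 0.40 over 20 libraries (permutation p = 0.0804), 0.70 with the replicate block (permutation p = 0.00048), -0.23 without the 2 farthest libraries and -0.17 (without FS1) to 0.37 without each library. Replicate numbers carry no stated pairing, so the block rests on a shared number alone. Of 30 pairs of libraries with the same number, 11 correlated over 0.1, and 6 of 20 libraries correlated best with their own number. The median r was 0.061 over pairs with the same number and -0.034 over pairs with different numbers. Low counts limit Sntn, Pifo, Steap1 and Kcnj13 in single libraries, and Mia could not be tested.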
